A study of Mus musculus with 3 samples.

Results

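In the section taken on Day 14 after wounding, 103 of 689 spots were selected on their measured levels of 5 genes of the inner root sheath of the hair follicle, and are described here as the hair follicle spots. The 5 genes were *Krt71*, *Krt25*, *Krt27* and *Krt28*, keratins of the inner root sheath, and *Tchh*, which encodes trichohyalin, the protein that the same cells cross-link as they harden. The score of a spot was the summed count of unique molecular identifiers (UMIs, each standing for 1 captured transcript) of the 5 genes divided by all UMIs of the spot, and the 15% of spots with the highest score were chosen. The 689 spots were those that carry the mark for tissue in the deposited position file and held at least 500 UMIs. By the study's legend the spots picked on the slide photographs show a region of interest, and many spots without the mark also held 500 UMIs or more, so the mark may cover a part of the section and an unmarked spot may be tissue as well. The remaining 586 are the other marked spots, and 8 marked spots below that minimum were left out.

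The series is a Visium experiment, in which a tissue section is laid on a slide printed with capture spots and each spot reads the RNA of the small region above it, which can hold several cells of different types or parts of them. Full-thickness excisional wounds of 4 mm had been made in shaved back skin of wild-type C57BL/6J male mice aged 7 to 12 weeks, the tissue was taken with a 6 mm punch on Day 3, Day 7 or Day 14, and 1 frozen section of 10 µm was read for each day. All groups share the wound and the strain, and no group is unwounded skin. With 1 section a day no test between days or between groups of spots was possible. Spots of 1 section are not replicates, the day cannot be told apart from the section, and every 95% interval given here covers counting error only. In such mixed spots fewer cells of a type and less RNA per cell cannot be told apart.

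A hair follicle in its growing phase, called anagen, is built from a bulb in which matrix cells divide around the dermal papilla, a small group of fibroblasts that signals to them. Matrix cells leave the bulb and become concentric layers, of which the outermost are the companion layer and the inner root sheath and the inner ones form the hair shaft, made of hair keratins bound together by keratin-associated proteins. Melanocytes of the bulb pass pigment to the shaft cells, and the outer root sheath surrounds the whole and is continuous with the epidermis. In resting follicles the inner root sheath and the bulb are lost until the next growing phase.

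The hair follicle spots held 1112897 UMIs and the other marked spots 3496920. Their depth differed, with a median of 9578 UMIs a spot (lowest 1325, highest 25782) against 4426 (lowest 515, highest 34563). When each spot was thinned to 1000 UMIs, the median number of genes seen was 741 in the hair follicle spots and 703 in the 576 other spots deep enough. Levels are given as CPM, the UMIs of a gene or list scaled to a total of 1000000 UMIs, pooled over the spots of a group, and ratios are given on the log2 scale.

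By the choice of spots, the score was 0.522% at the lowest, 0.714% at the median and 2.84% at the highest among the hair follicle spots. Among the other marked spots it was 0% at the lowest, 0.258% at the median and 0.522% at the highest. The spot just inside the threshold scored 0.5224% (103 of 19717 UMIs) and the spot just outside 0.5222% (38 of 7277 UMIs), so the boundary falls within a continuous range and not at a gap. The hair follicle spots held 52.6% of the score UMIs of the 689 spots, and 567 of the 586 other spots (96.8%) had at least 1 such UMI. A low level of these transcripts was therefore read across most of the section. In 145 spots rich in muscle transcripts, where follicle genes are not made by the main tissue, 126 had a score UMI and the pooled score was 0.0874%.

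The 5 score genes are given as a description, since they chose the spots. *Krt71* was at 3242 CPM in the hair follicle spots and at 933 CPM in the other marked spots, and at 1082 CPM in the lowest, 2543 in the median and 10313 in the highest hair follicle spot. *Krt25* was at 2109.8 against 669 CPM, *Krt27* at 1758 against 532 CPM and *Krt28* at 421 against 131 CPM. *Tchh* was at 2246 against 541 CPM. The ratio was thus between 3.15 and 4.15 for each of the 5 genes, and each gene was seen in most of the spots: *Krt71*, *Krt27* and *Tchh* were seen in all 103 spots, *Krt25* in 102 and *Krt28* in 91.

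These genes lie at few places in the genome (GRCm38, GENCODE vM21). *Krt25*, *Krt27* and *Krt28* are neighbors on the minus strand of chromosome 11, at chr11:99315516-99322951, chr11:99345565-99351104 and chr11:99364872-99374903. *Krt71* lies on the minus strand at chr15:101733949-101743109, and *Tchh* on the plus strand at chr3:93442330-93449077. The 100 bases before the RefSeq start of each score gene are given here, because the 5 genes were read together as 1 score, and with them those of *Krt73* and *Krt26*, a pair of inner root sheath keratin genes beside them that took no part in the choice. They are written 5′ to 3′ on the strand of the gene (RefSeq, GRCm38.p6), and capitals mark the letters TATAAA, the core of a TATA box, which positions the start of transcription in part of all promoters.
*Krt71* (chr15:101743098-101743197, minus strand): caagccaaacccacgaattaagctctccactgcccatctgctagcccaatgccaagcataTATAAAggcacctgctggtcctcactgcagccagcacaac
*Krt25* (chr11:99322952-99323051, minus strand): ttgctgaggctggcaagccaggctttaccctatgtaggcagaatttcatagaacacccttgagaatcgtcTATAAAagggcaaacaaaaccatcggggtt
*Krt27* (chr11:99351119-99351218, minus strand): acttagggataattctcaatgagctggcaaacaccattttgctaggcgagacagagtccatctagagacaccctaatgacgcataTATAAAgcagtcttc
*Krt28* (chr11:99374904-99375003, minus strand): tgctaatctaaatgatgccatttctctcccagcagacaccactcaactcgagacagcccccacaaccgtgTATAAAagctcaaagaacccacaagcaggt
*Tchh* (chr3:93442230-93442329, plus strand): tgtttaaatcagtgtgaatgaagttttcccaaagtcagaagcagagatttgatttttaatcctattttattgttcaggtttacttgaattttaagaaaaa
*Krt73* (chr15:101802361-101802460, minus strand): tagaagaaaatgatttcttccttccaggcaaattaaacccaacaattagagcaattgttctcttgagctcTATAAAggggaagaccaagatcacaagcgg
*Krt26* (chr11:99337966-99338065, minus strand): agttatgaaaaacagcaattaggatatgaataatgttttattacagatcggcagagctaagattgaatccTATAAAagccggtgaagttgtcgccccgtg

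In the 6 keratin promoters the T of TATAAA stood 30 bases before the RefSeq start in *Krt25*, *Krt28*, *Krt73* and *Krt26*, 40 bases before it in *Krt71* and 15 in *Krt27*. For *Krt71* and *Krt27* the RefSeq start differs from the start of the GENCODE gene given above, so both distances depend on the annotation. The letters TATAAA, searched on both strands, were in 1827 of 32851 promoter windows of the same length (5.56%), and in 28 of 34 windows of keratin-associated protein genes (82.4%), 5 of 9 of hair shaft keratins and 5 of 12 of the other inner root sheath genes. For comparison, 9 of 29 windows of epidermal differentiation genes and 0 of 31 of proliferation genes held them. The letters CTTTGA, found in sites of the Wnt-responsive LEF/TCF factors, were in 1 of the 5 score windows (*Krt28*, on the other strand, 4.97% of all windows), and AGATAA, found in GATA sites, in 0 of the 5 (3.59% of all windows). A match of letters is a description of these windows and not a site in use.

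The hair follicle spots lay together. Of the 103 spots, 98 touched another one, with a median of 4 such neighbors, and 88 (85.4%) formed a single connected group. The other 15 lay in 9 small groups, of which 5 were single spots. The 50 spots rich in epidermal transcripts (at least 2 times the CPM of the epidermal list over the section) ran along 1 edge of the marked region, and none of them was a hair follicle spot. The median distance to the nearest of them was 5 spot pitches (the center-to-center step between neighboring spots) for the hair follicle spots and 6.24 for the other marked spots. None of the 145 muscle-rich spots was a hair follicle spot either, although muscle transcripts were present in each hair follicle spot, at 26518 CPM in the lowest and 92881 CPM in the highest. The map of the slide shows the compact group and, outside the marked region, further spots with scores above the same threshold.

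**Figure D1:**
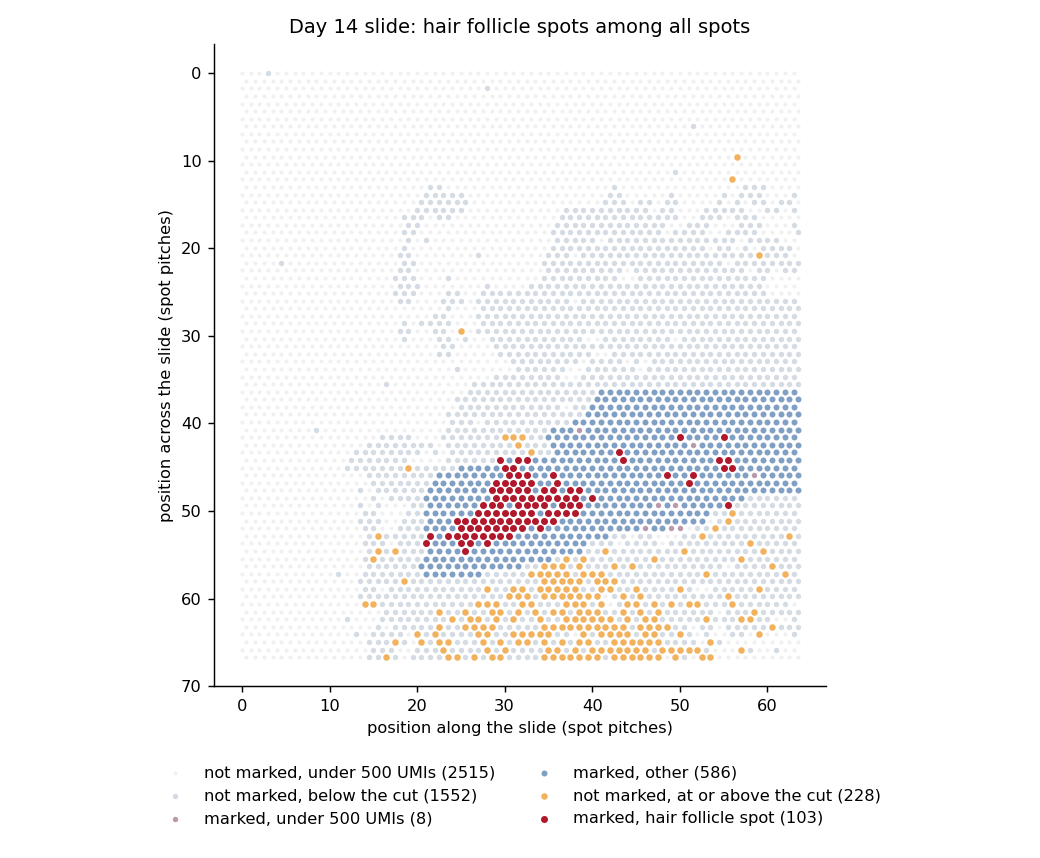
Each point is 1 of the 4992 spots of the Day 14 slide, placed by its position along (x axis) and across (y axis) the slide in spot pitches and colored by kind, with the number of spots in the legend. The 103 hair follicle spots form 1 main group of 88 within the marked region, and the 228 unmarked spots at or above the same score lie mostly beyond its lower edge.

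Across the transcriptome, the hair follicle spots were compared with the other marked spots for the 10024 genes with at least 50 UMIs over both groups, the 5 score genes left out. A gene was counted as higher or lower where the ratio was at least 2-fold and its interval excluded 1. By this measure 270 genes were higher (2.69% of those tested) and 199 lower (1.99%), and the median log2 ratio of all genes tested was 0.11. With TMM scaling, which centers most genes near equal levels and moved every log2 ratio by −0.12, 184 genes were higher (1.84%) and 292 lower (2.91%), so the share of higher genes among the calls was 57.6% in the first count and 38.7% in the second. None of the gene lists below that had a median beyond 2-fold changed direction under either scaling. Since the spots were chosen on follicle genes, other follicle genes in the same spots are not independent of the choice, and all counts describe these 689 spots.

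Ranked by the interval bound nearer to equal levels, the 15 highest were *Krt73*, *S100a3*, *Prr9*, *Fbp1*, *Krtap16-1*, *Padi3*, *Gm47969*, *Tchhl1*, *Krt26*, *Dlx3*, *Psors1c2*, *Cnfn*, *Krtap8-1*, *Gm7544* and *Krtap11-1*. Among them are inner root sheath keratins, keratin-associated proteins of the shaft, the calcium-binding hair cuticle protein *S100a3*, and *Padi3*, the enzyme that converts arginine to citrulline in trichohyalin. *S100a3* was at 890.5 against 249.9 CPM, a log2 ratio of 1.83 (1.7 to 1.97). *Fbp1*, a fructose bisphosphatase gene, is known for glucose synthesis in liver and kidney. It had 82 UMIs in the hair follicle spots and 62 in the other marked spots, 73.7 against 17.7 CPM, a log2 ratio of 2.06 (1.56 to 2.55), and it was the only higher gene of the glycolysis list, whose median was −0.25. *Gm47969* and *Gm7544* are predicted genes near each other on chromosome 1, at chr1:83044932-83045946 and chr1:82955186-82956013. A single spot reached 10552 CPM for *Gm7544*, and the median hair follicle spot had none.

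Of the other inner root sheath genes, 13 of 15 in the files reached the UMI minimum, 8 were higher and none lower, with a median log2 ratio of 1.52. *Krt73*, a keratin of the sheath cuticle, was at 476 CPM against 123 CPM, a log2 ratio of 1.95 (1.76 to 2.14). It was seen in 90 of 103 hair follicle spots and reached 1723 CPM in the highest, while the highest of the other spots stood at 1188 CPM, so single spots of the groups overlapped. *Krt26* and *Krt72*, both sheath keratins, had log2 ratios of 1.69 (1.47 to 1.92) and 1.52 (1.29 to 1.76). *Prr9*, a small proline-rich protein gene, was at 1440.4 against 429 CPM, a log2 ratio of 1.75 (1.64 to 1.85), and *Tchhl1*, a trichohyalin-like gene next to *Tchh*, at 118 against 32.3 CPM. *Dlx3*, a homeobox factor of the differentiating sheath and shaft, was at 346 against 109 CPM, a log2 ratio of 1.66 (1.46 to 1.87). *Gata3*, a factor needed for the sheath lineage, was at a log2 ratio of 0.67 (0.48 to 0.86) and did not reach 2-fold. After thinning to 1000 UMIs, *Krt73* was seen in 38.8% of the hair follicle spots (29.4 to 48.9) and 12.2% of the other spots (9.6 to 15.1). It was seen in 3.62% of the muscle-rich spots (1.19 to 8.25), which can hold other cells than muscle. Without thinning the shares were 87.4%, 42% and 10.1% at median depths of 9578, 4426 and 2944 UMIs.

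The companion layer and medulla list was less raised. *Krt75*, the keratin that marks the companion layer, was the only higher gene of 7, at 283 against 115 CPM and a log2 ratio of 1.3 (1.09 to 1.52). *Krt17* had a log2 ratio of 0.68 (0.59 to 0.78), *Krt6a* one of 0.31 (0.12 to 0.50), and *Krt79*, a keratin of the upper follicle and the sebaceous duct, one of −0.08 (−0.22 to 0.07). The median of the list was 0.31.

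The structural genes of the hair shaft were raised nearly throughout. Among the hair shaft keratins 9 of 15 reached the minimum and 8 were higher, with a median log2 ratio of 1.44, and among the keratin-associated proteins 25 of 57 reached it and 24 were higher, also with a median of 1.44. For the keratin-associated list the medians over spots lay closer. The median spot had 1503 CPM among the hair follicle spots and 957 CPM among the others, and the highest 35923 and 8211 CPM. For shaft keratins the median spot had 839 against 293 CPM. *Krt35*, an early keratin of the shaft cuticle and cortex, was at 543 against 219.9 CPM, a log2 ratio of 1.3 (1.15 to 1.46). *Krt34*, *Krt86* and *Krt87*, later keratins of the shaft, had log2 ratios of 1.44 (1.02 to 1.85), 1.46 (1.04 to 1.88) and 1.80 (1.35 to 2.26). *Krt32* was the 1 gene of the list short of 2-fold, at 0.91 (0.38 to 1.43). Of the keratin-associated proteins, *Krtap16-1* had the highest log2 ratio, 2.1 (1.55 to 2.67) on 67 and 49 UMIs, *Krtap4-1* had 1.17 (0.99 to 1.35) on 421 and 588 UMIs, and *Krtap4-7* was the gene short of 2-fold, at 0.94 (0.66 to 1.22). Many of these genes are near-identical copies in tandem, so reads may be split or lost between them and the value of a single copy is uncertain.

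By position, 59 tested keratin and keratin-associated protein genes lay in the 5 clusters of such genes in the genome (at least 3 genes no more than 300000 bases apart), and 43 of them were higher and 4 lower. The cluster on chromosome 11, chr11:99232761-100269871, held 39 of the 59 and 30 of the higher genes. Within its bounds 8 of 9 further tested genes, which carry predicted names, were higher too (*Gm11559*, *Gm11562*, *Gm11563*, *Gm11568*, *Gm11569*, *Gm11595*, *Gm11596* and *Gm11938*). The cluster on chromosome 15, chr15:101347444-102032027, was divided, with 7 higher and 3 lower of 14. *Krt1*, of the epidermis, and *Krt73*, of the follicle, were lower and higher within it. The same held on chromosome 3, where *Tchh* lies within a long run of genes for cornified proteins. Between *S100a3* and *Tchhl1* (chr3:90560578-93471980, a stretch picked after the values were seen), 37 genes were tested, 7 were higher (*2210017I01Rik*, *Crnn*, *Prr9*, *S100a3*, *S100a7a*, *Sprr1a* and *Tchhl1*) and 14 lower, among them *Flg*, *Flg2*, *Hrnr*, *Lor* and 8 *Lce1* genes.

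Of the transcription factors of the hair matrix, 17 of 20 were tested, 4 were higher and none lower, with a median log2 ratio of 0.68. The 4 were *Dlx3*, counted above, *Hoxc13*, a homeobox factor that controls hair keratin genes, *Msx2* and *Msx1*. *Hoxc13* was at 221 against 94.7 CPM, a log2 ratio of 1.22 (0.98 to 1.47), and *Msx2* at 173 against 79.5 CPM, a ratio of 1.13 (0.85 to 1.40). *Lef1*, which partners β-catenin in precursors of the shaft, was at 0.97 (0.58 to 1.36), and *Foxn1*, the factor mutated in nude mice, at 0.67 (0.07 to 1.25) on 38 and 75 UMIs. Without the muscle-rich spots in the comparison 187 genes were higher in all (1.9%), 2 of the 17 factors were beyond 2-fold, and the median of the list was 0.52. The inner root sheath, shaft keratin and keratin-associated lists then had medians of 1.37, 1.23 and 1.29, with 8 of 13, 7 of 8 and 19 of 25 genes higher.

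Genes of the signals that pass between bulb and papilla were moderately higher. Of 43 listed genes of the hedgehog, Wnt, BMP, Notch and Eda pathways 33 were tested, 6 were higher and 1 lower, with a median of 0.65. *Shh*, the hedgehog ligand made by matrix cells, had 67 UMIs in the hair follicle spots and 87 in the others, 60.2 against 24.9 CPM, a log2 ratio of 1.27 (0.79 to 1.75). It was seen in 42 of 103 spots against 78 of 586. Its target gene *Hhip* had a ratio of 1.17 (0.44 to 1.88), the pathway's factor *Gli2* one of 1.04 (0.39 to 1.67), and *Ptch1* and *Gli1*, both targets too, 0.80 (0.45 to 1.14) and 0.65 (0.01 to 1.27). *Notch1*, at 1.09 (0.86 to 1.32), and the Wnt inhibitor *Nkd2*, at 1.03 (0.65 to 1.39), were also among the higher genes. *Wnt3* was the lower gene, on 7 and 53 UMIs.

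For the dermal papilla and sheath, 15 of 26 genes were tested, 4 were higher and none lower, with a median of 0.77. They were *Ndnf*, *Hhip*, *Cntfr* and the Wnt inhibitor *Wif1*, which was at 124 against 53.8 CPM, a log2 ratio of 1.21 (0.88 to 1.53). *Corin*, a protease used to mark the papilla, had 13 and 18 UMIs and fell under the minimum.

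Pigment genes were among the more clearly raised groups. Of 21 melanocyte and pigment genes 16 were tested, 7 were higher and none lower, with a median of 0.93, and 5 were higher without the muscle-rich spots. *Tyr*, the rate-limiting enzyme of melanin synthesis, was at 111 against 39.2 CPM, a log2 ratio of 1.5 (1.13 to 1.86). *Dct* and *Tyrp1*, which act after it, were at 1.15 (0.91 to 1.38) and 1.07 (0.79 to 1.35), and *Pmel*, which forms the fibrils of the pigment granule, at 1.15 (0.93 to 1.36). *Mlana*, *Trpm1* and *Slc24a5* were higher too. *Sox10* and *Mitf*, regulators of the lineage, had ratios of 0.34 (−0.46 to 1.1) and 0.72 (0.23 to 1.19), and *Gpnmb*, which macrophages also make, 0.29 (0.07 to 0.51). The intervals of the regulators were wide, on 21 and 52 UMIs for *Sox10*.

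Proliferation genes were higher as a group but mostly by less than 2-fold. Each of the 37 tested genes of 42 listed had a ratio above equal levels, with a median log2 ratio of 0.82, and 4 passed 2-fold, or 2 without the muscle-rich spots in the comparison and 3 with TMM scaling. These were *Plk1*, *Nusap1*, *Tpx2* and *Birc5*, genes of the mitotic phase, at 1.34 (0.80 to 1.88), 1.27 (0.77 to 1.76), 1.12 (0.58 to 1.65) and 1.06 (0.71 to 1.39). *Mki67* was at 179.7 against 106 CPM, a log2 ratio of 0.76 (0.51 to 1.02). *Pcna* was the gene nearest to equal levels, at 0.29 (−0.01 to 0.59).

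No gene of the stem cell compartment or of rest was beyond 2-fold. None of the 16 tested genes of the bulge and outer root sheath was higher or lower by 2-fold, with a median of −0.18. *Krt15*, a keratin of the bulge, was at a log2 ratio of −0.24 (−0.33 to −0.15), *Cd34*, a marker of bulge cells, at −0.55 (−0.92 to −0.21), and *Lgr5* at 0.57 (−0.06 to 1.18). *Lhx2* came closest to 2-fold, at 0.98 (0.57 to 1.37). Of the 12 genes of cycle exit and rest, 6 reached the minimum and none was called, with a median of −0.12 and a pooled level of 407 against 352 CPM. *Sfrp1* and *Foxc1* were at 0.68 (0.40 to 0.96) and 0.56 (0.21 to 0.90).

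**Figure D2:**
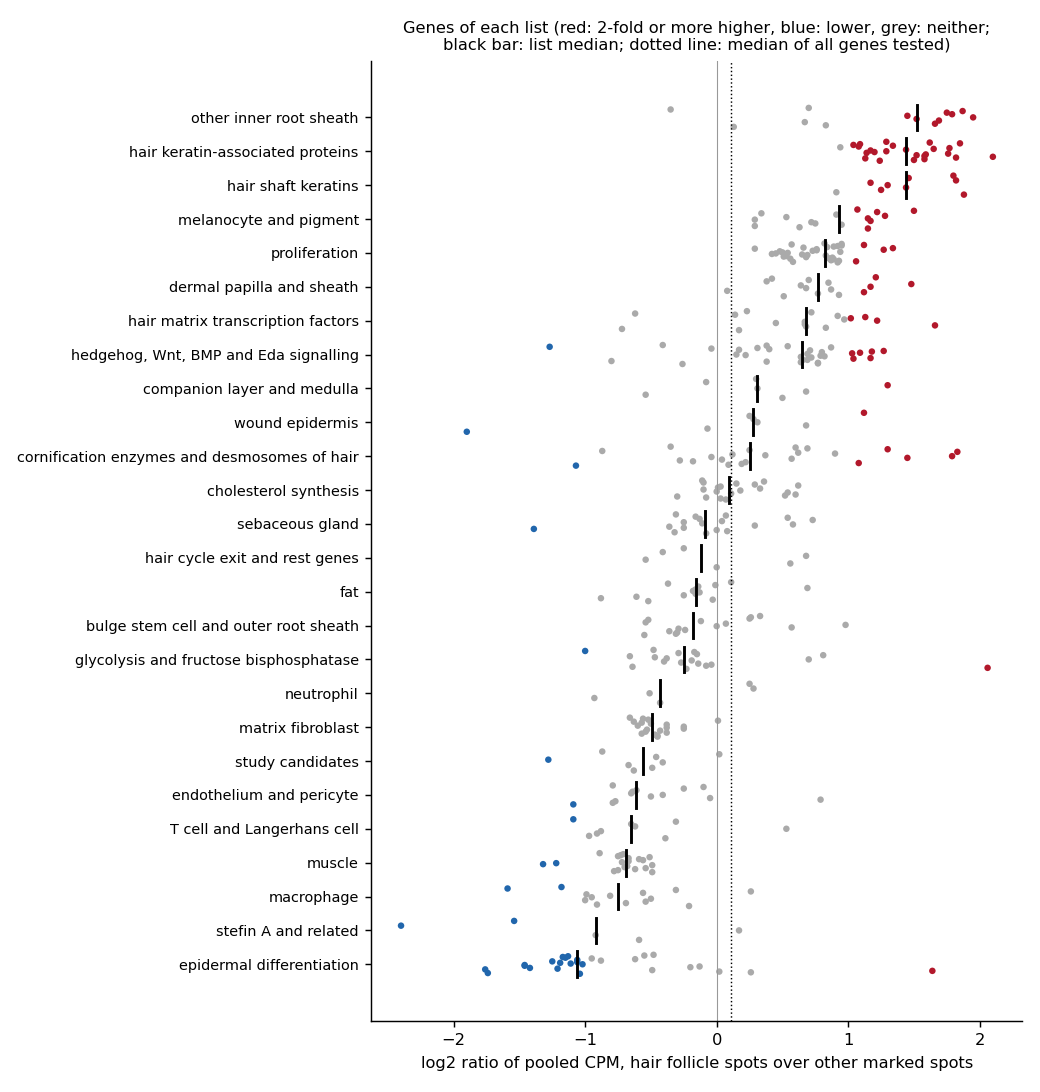
Each point is 1 tested gene, placed on the x axis by its log2 ratio of pooled CPM in the 103 hair follicle spots over the 586 other marked spots, with 1 row for each gene list on the y axis. The black bar is the list median and the dotted line the median of all 10024 genes tested (0.11). The inner root sheath, shaft keratin and keratin-associated lists lie furthest to the right and the epidermal list furthest to the left.

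The genes at the bottom of the comparison belonged to the epidermis and to muscle. The 8 lowest were *Trdn*, *Calm4*, *Flg*, *Clca3a2*, *Myh8*, *Krt1*, *Krt10* and *Cstdc5*. *Krt1* and *Krt10*, the keratin pair of the suprabasal epidermis, were at 563 against 1554 CPM and at 594 against 1629 CPM, both a log2 ratio of −1.46. *Flg*, the filaggrin gene of the granular layer, was at −1.76 (−2.12 to −1.41), and *Trdn*, a calcium-release protein of muscle, at −2.38 (−2.78 to −2.0). Of 27 tested epidermal differentiation genes 16 were lower, with a median of −1.06, and 1 was higher. The medians over spots lay closer: the median spot had 7202 CPM of the list among the hair follicle spots and 7315 CPM among the others, whose highest spot was at 146825 CPM against 14339.6. Likewise the median spot had 567 against 605 CPM of *Krt1*, 540.1 against 615 of *Krt10* and 828 against 818 of *Lor*. The exception was *Cnfn*, cornifelin, an envelope protein, at 337 against 108 CPM and a log2 ratio of 1.64 (1.43 to 1.85). Since none of the epidermis-rich or muscle-rich spots was chosen, the compared spots carried more of both tissues, with the muscle list at 80229 against 52071 CPM and 2 of its 20 genes lower.

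Enzymes and junction proteins that serve both cornified tissues were split in the same way. Of 23 tested, *S100a3*, *Padi3*, *Padi1*, *Selenbp1* and *Gsdma* were higher and *Casp14*, a protease of the epidermal barrier, was lower, at −1.07 (−1.61 to −0.57). The desmosome genes *Dsp*, *Jup* and *Pkp1* stood at 0.19 (0.08 to 0.30), 0.22 (0.08 to 0.35) and 0.12 (−0.04 to 0.28). *Sprr1a*, an envelope gene also made in wound epidermis, was the 1 higher gene of 7 in the wound epidermis list, at 1.12 (0.97 to 1.27), while *Krt16* was at −0.07 (−0.64 to 0.47) and *Il1f9* was lower, at −1.90 (−3.26 to −0.79).

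Lists of other skin cells had no gene beyond 2-fold above the other spots. Of 5 tested stefin A and related genes 2 were lower (median −0.92), of 14 macrophage genes 2 (−0.75), of 9 T cell and Langerhans cell genes 1 (−0.65), of 13 endothelium and pericyte genes 1 (−0.61), and of 18 sebaceous gland genes 1 (−0.09). No gene was called among the 20 matrix fibroblast, 5 neutrophil, 14 fat and 20 cholesterol synthesis genes, whose medians were −0.49, −0.43, −0.16 and 0.09, the last of them −0.03 under TMM scaling. The 8 tested candidate genes of the study, which its authors chose on data that include these sections, had a median of −0.56 with 1 lower, *Clec3b*. *Itgbl1* was at 44.9 against 61.8 CPM, a log2 ratio of −0.46 (−0.93 to −0.01).

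With distance from the hair follicle spots, the levels of sheath, shaft, matrix and pigment genes fell in steps and did not stop at the border of the chosen spots, whereas genes of the outer root sheath did not fall this way. The other inner root sheath genes were at 3905 CPM in the hair follicle spots, 1966 CPM in the 114 spots next to them, 1428 CPM at up to 2 pitches, 1290.1 CPM at up to 4 and 920.0 CPM at up to 8. Hair shaft keratins went from 1056 to 533, 408, 338 and 340.3 CPM over the same steps, and keratin-associated proteins from 2940.1 to 1582, 1197, 931 and 730.2 CPM. Bulge and outer root sheath genes were at 6097 CPM in the hair follicle spots and at 7208, 6952, 9393 and 4921 CPM over these steps, and the companion layer and medulla list at 2732, 2779, 2198, 1948 and 1411 CPM. Proliferation genes declined less than the sheath genes, from 6147 to 4517, 3968, 3415 and 2791 CPM. The epidermal list went the other way up to 4 pitches, from 6962 to 7859, 11038 and 23572 CPM. The median depth also declined along these steps, from 9578 to 6750.0, 6092, 4244 and 3078 UMIs, and the muscle list increased from 52071 to 134042 CPM at up to 8 pitches. Their part in the gradients was not tested.

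**Figure D3:**
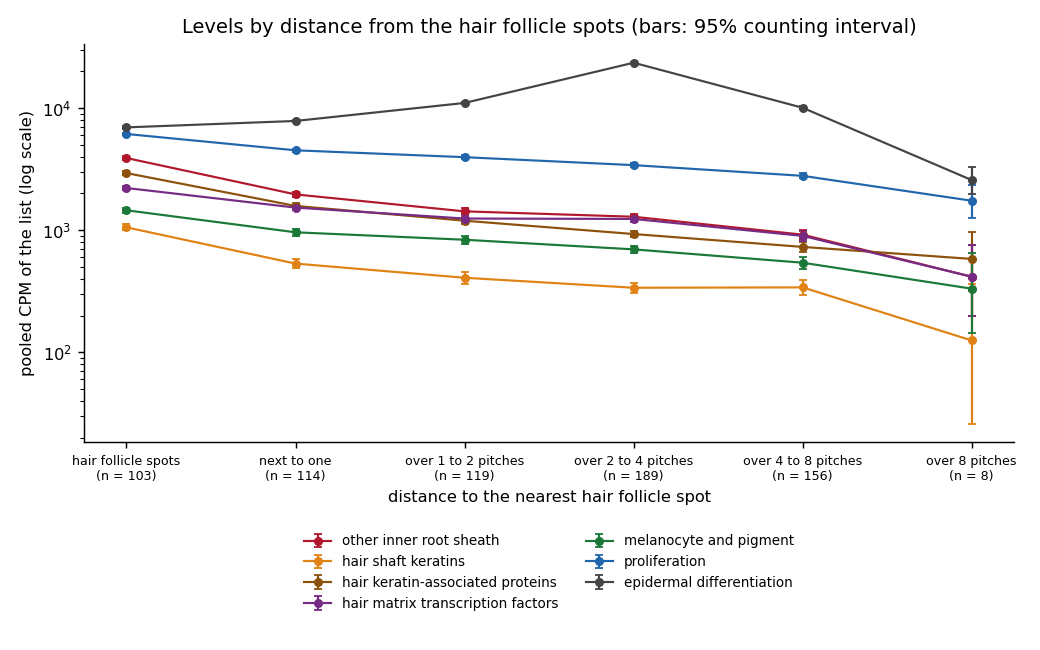
Pooled CPM (y axis, log scale) of 7 gene lists in the hair follicle spots and in the other marked spots, grouped on the x axis by distance to the nearest hair follicle spot in spot pitches, with n spots in each group and bars for the 95% counting interval. All lists shown but the epidermal one step down in the adjacent spots, while the epidermal list is highest at over 2 to 4 pitches.

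Among the hair follicle spots themselves, the make-up changed with distance from the epidermis-rich edge, in part as it did over the whole section. The 15 spots within 3 pitches of it were richest in the bulge and outer root sheath, sebaceous gland, and companion layer and medulla lists. Bulge and outer root sheath genes were at 10674 CPM there (10178 to 11188) and at 5687, 4666 and 5442 CPM in the 40 spots at over 3 to 5, the 28 at over 5 to 7 and the 20 at over 7 pitches. Sebaceous gland genes went from 7679 to 3737, 3037 and 3467 CPM, and the companion layer and medulla list from 4450.2 to 2996, 1679 and 2054 CPM. *Krt15* and *Krt14* showed the same order, at 2302 and 3689 CPM in the nearest spots and at 758 and 1247 CPM at over 5 to 7 pitches. The other marked spots showed a like order over the 4 zones, with bulge and outer root sheath genes at 8606, 6391, 5476 and 3347 CPM, sebaceous gland genes at 7569, 4598, 3481 and 2388 CPM, and the companion list at 3038, 2071, 1707 and 1271 CPM. This gradient was therefore not particular to the hair follicle spots. *Krt75*, the companion layer keratin, did not follow it. In the hair follicle spots it was at 264 CPM (191 to 356) within 3 pitches and 387 CPM (335 to 445) at over 3 to 5.

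Inner root sheath genes and shaft keratins were highest in the next zone, and so were the score genes that chose the spots. The pooled score genes were at 7869, 12711, 7193 and 6557 CPM over the 4 zones. The part of the score in the differences between zones was not tested. At over 3 to 5 pitches the other inner root sheath genes reached 5080.1 CPM (4887 to 5279) and the shaft keratins 1435 CPM (1333 to 1542), against 4125 and 761 CPM nearer to the epidermis and 2593 and 690.1 CPM at over 5 to 7 pitches. Keratin-associated proteins were as high near the epidermis as in this zone, 4002 and 4011 CPM, and fell to 1281 and 1273 CPM further away. In the other marked spots keratin-associated proteins were at 1344, 1547, 1122 and 778 CPM, inner root sheath genes at 1667, 1764, 1426 and 993 CPM and shaft keratins at 450.0, 465, 459 and 298 CPM over the same zones. *S100a3* was at 614, 1355, 451 and 430.1 CPM over the 4 zones, and *Prr9* at 1915, 2016, 628 and 456 CPM. The score genes were not alike: *Tchh* and *Krt27* were at 2511 and 2026 CPM in the nearest spots, 3006 and 2300 CPM in the second zone and 1240.3 and 1007 CPM in the third, whereas *Krt25* went from 1001 to 2685 and 1912 CPM and *Krt28* from 203 to 517 and 407 CPM.

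Further from the epidermis, genes of the bulb were highest. Proliferation genes were at 4432 CPM (4114 to 4767) in the nearest spots and at 5801, 7631 and 5969 CPM in the following zones. Dermal papilla and sheath genes were at 552, 682, 1054 and 781 CPM, against 548, 581, 549.9 and 370.0 CPM in the other marked spots, and melanocyte genes at 865, 1462, 1619.6 and 1826 CPM. *Tyr* was at 43.0 CPM (17.3 to 88.5) in the nearest and 176 CPM (107 to 271) in the farthest spots, and *Shh* at 43.0 (17.3 to 88.5) and 114 CPM (60.8 to 195), with overlapping intervals. In the other marked spots, melanocyte genes were at 844, 1056, 793 and 609 CPM and proliferation genes at 3906, 5014, 4347 and 2824 CPM over the same zones. Both were highest in the second zone there. In the hair follicle spots, proliferation genes were highest in the third zone and melanocyte genes in the fourth. The farthest hair follicle spots were shallower, with a median of 5418 UMIs against 9258 to 12497 in the other zones, and their muscle list was higher, at 68673 CPM against 49573 to 51665. The part of these differences in the zones was not tested.

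**Figure D4:**
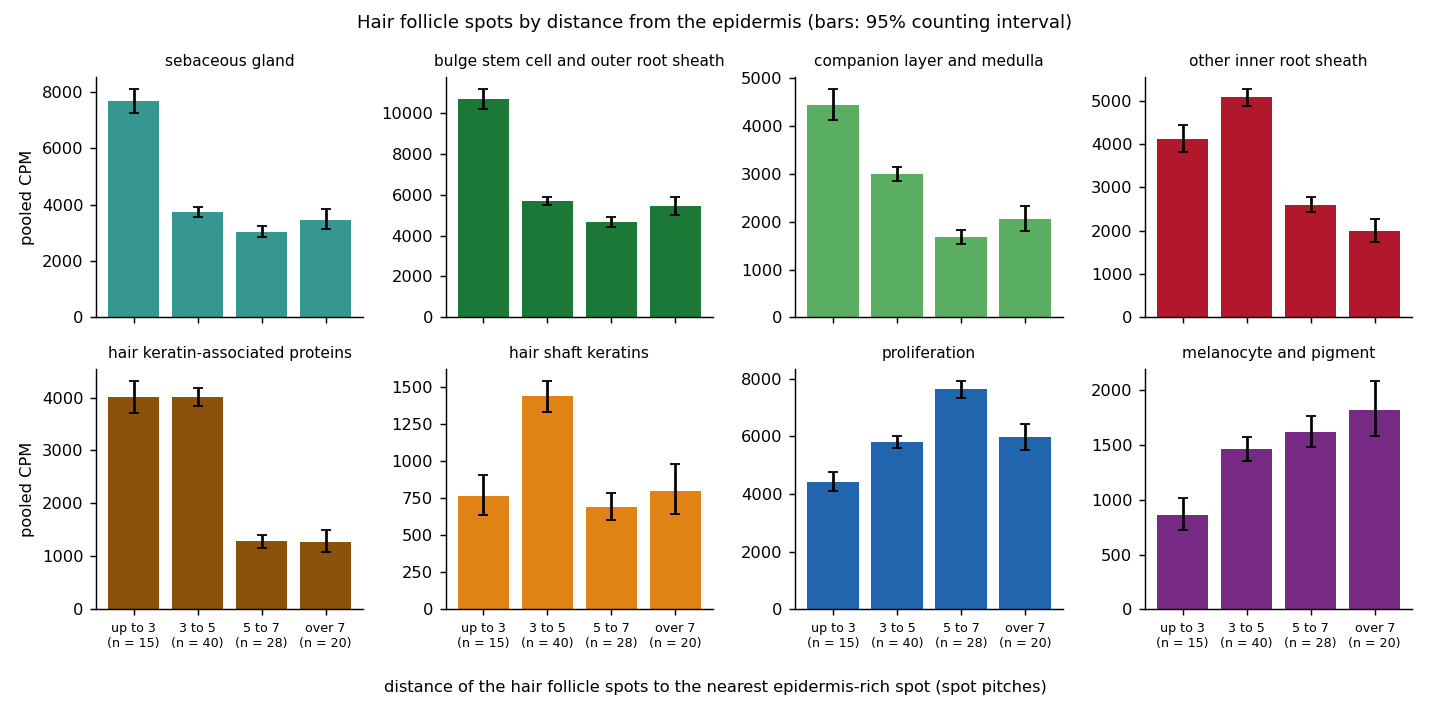
Pooled CPM (y axes, each from 0) of 8 gene lists in the 103 hair follicle spots, grouped on the x axis by distance to the nearest epidermis-rich spot in spot pitches, with n spots in each group and bars for the 95% counting interval. Sebaceous, bulge and companion lists are highest within 3 pitches, inner root sheath genes and shaft keratins at 3 to 5, keratin-associated proteins over both of these zones, proliferation at 5 to 7 and melanocyte genes at over 7.

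Within the chosen spots, the pooled level of keratin-associated proteins was highest in the spots of highest score, and that of proliferation genes was not. Keratin-associated proteins were at 4476 CPM in the highest 5% of the 689 spots, at 2058 and 1695 CPM in the next 2 steps of 5%, and at 1718 CPM in the step just below the threshold. Proliferation genes were at 5907, 6399 and 6209 CPM in the first 3 steps and at 4776 CPM below the threshold. Spot by spot, score genes and keratin-associated proteins went together only weakly across the 103 spots (Spearman's rho 0.19, Pearson's r 0.27). Score genes went more closely with the other inner root sheath genes (rho 0.70, r 0.68) and shaft keratins (rho 0.47, r 0.42).

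Single hair follicle spots differed widely. Keratin-associated proteins ranged from 0 to 35923 CPM around a median of 1503, the other inner root sheath genes from 250.4 to 21554 around 2714, shaft keratins from 0 to 4834 around 839, and melanocyte genes from 0 to 4128 around 1272. Across the 103 spots, which share a section and neighboring spots, list levels as log2(CPM + 1) moved in blocks. Keratin-associated proteins went with bulge and outer root sheath genes (Spearman's rho 0.64, Pearson's r 0.58) and with the companion list (rho 0.55, r 0.57), and against proliferation (rho −0.42, r −0.45). Matrix transcription factors went with proliferation (rho 0.52, r 0.23) and melanocyte genes (rho 0.42, r 0.66). In the 101 spots with at least 2000 UMIs the latter were rho 0.40 and r 0.51. Shaft keratins and keratin-associated proteins, parts of the same fiber, hardly moved together (rho 0.15, r 0.12). Bulge and outer root sheath genes went against proliferation (rho −0.52, r −0.50).

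**Figure D5:**
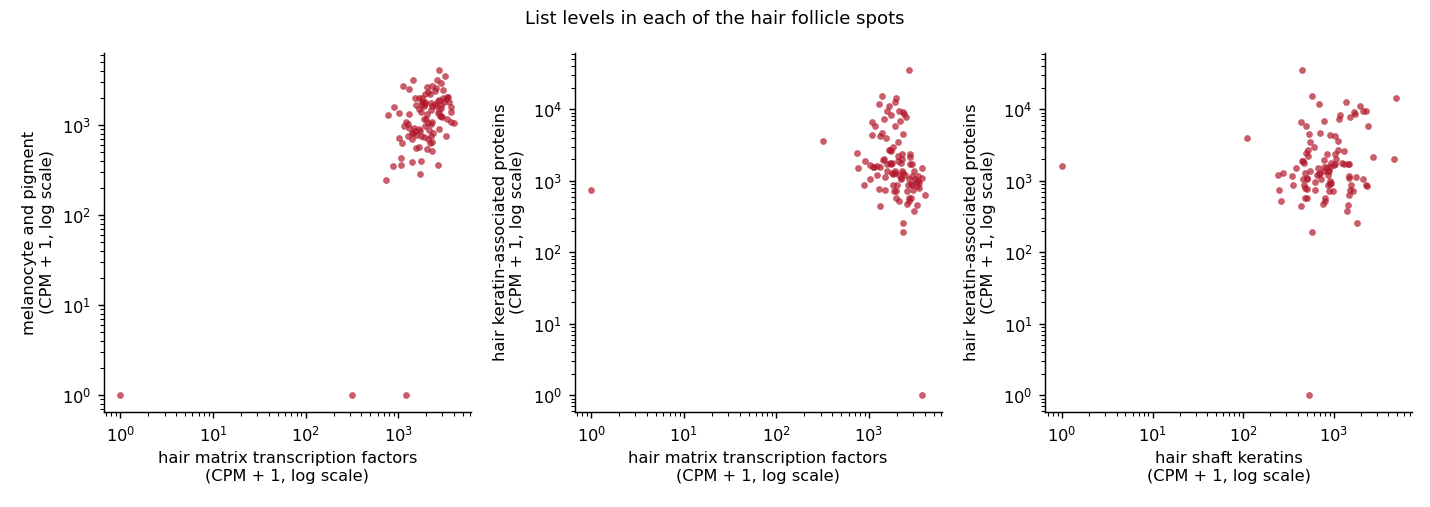
Each point is 1 of the 103 hair follicle spots, with list levels as CPM + 1 on log axes, for matrix transcription factors against melanocyte genes (left), matrix transcription factors against keratin-associated proteins (middle), and shaft keratins against keratin-associated proteins (right). The left pair goes together (rho 0.42), the middle pair goes in opposite directions by rank (rho −0.37, r −0.10), and the right pair is nearly unrelated (rho 0.15).

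On the slide outside the marked region, 228 of 1780 spots with at least 500 UMIs scored at or above the same threshold (12.8%, 11.3 to 14.5, exact binomial). Whether these spots lie over tissue was not tested. They took no part in the choice of the hair follicle spots but were picked by the same 5 genes. Of the 228, 205 lay closer to an epidermis-rich spot than to a hair follicle spot, and their median distance to the marked region was 7.81 pitches. Set against the other 1552 unmarked spots, 1661 of 8341 tested genes were higher (19.9%). Of the follicle lists, 10 of 11 inner root sheath genes, 7 of 7 shaft keratins, 17 of 22 keratin-associated proteins and 9 of 11 melanocyte genes were higher. The 2 sets of unmarked spots also differed in muscle transcripts, at 57582 against 167604 CPM. When unmarked spots with more muscle transcripts than any hair follicle spot were left out (an alternative chosen after seeing the data), 218 and 605 spots remained, with muscle transcripts at 55810.2 and 57962 CPM, and 68 of 5470 genes were higher (1.24%). The counts were then 1 of 11, 0 of 4, 1 of 19 and 3 of 7, with medians of 0.64, 0.79, 0.29 and 0.80. Most genes of these lists were thus short of 2-fold in the remaining unmarked spots.

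On the earlier days the genes that define the hair follicle spots were nearly absent. The 5 score genes had 5 UMIs in the marked spots of Day 3 and 12 in those of Day 7, against 20704 on Day 14, or 2.82, 2.70 and 4489 CPM. No spot reached the Day 14 threshold: 0 of 520 on Day 3, which allows a share of up to 0.577%, and 0 of 539 on Day 7, up to 0.557% (a floor of 3 counts; the upper exact binomial limits are 0.707% and 0.682%). Shaft keratins had 6 and 13 UMIs against 2588 on Day 14, and keratin-associated proteins 9 and 26 against 7219. The wider list of other inner root sheath genes was not absent, at 489 CPM on Day 3 and 285 on Day 7 against 2028 on Day 14. Of its genes, *Krt73* had 0 and 1 UMIs against 961 and *Prr9* 1 and 1 against 3104. *Shh*, of the hedgehog pathway, had 0 and 6 against 154, and *Tyr*, of the melanocyte list, 0 and 9 against 260. By the floor of 3 counts a count of 0 allows a level of up to 1.69 CPM in the Day 3 section and 0.675 CPM in that of Day 7. For *Krt73* the upper exact Poisson limit of the Day 3 section is 2.08 CPM.

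Lists with wider roles in skin did not differ between days to the same degree. In the order of the days, bulge and outer root sheath genes stood at 5677, 6974 and 7109 CPM and dermal papilla and sheath genes at 489.8, 729 and 555 CPM. Melanocyte genes were at 331, 289.7 and 936 CPM, proliferation genes at 2189, 2505 and 4304 CPM, and matrix transcription factors at 422, 389.8 and 1487 CPM. Genes of cycle exit and rest were at 478, 481 and 365 CPM. The marked spots with at least 500 UMIs had median depths of 1987, 6795 and 4860.0 UMIs on the 3 days.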

How the data were processed

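The authors aligned and counted reads with Space Ranger 1.3.0, and the submitters' processing notes name the build mm10. The deposited values are raw UMI counts per gene (32285 genes) for all 4992 spots of each slide, with position files that carry a mark for tissue.

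From the counts, pooled CPM of the 2 groups of spots were compared as ratios with exact conditional binomial 95% intervals (Python 3.11.15, scipy 1.17.1), and pooled levels carry exact Poisson intervals. The method was tested on simulated pooled counts with counting error only. The simulation held no variation between spots, so it cannot tell how the intervals behave under such variation. Doublet callers were not run, as spots hold several cells. A muscle-rich or epidermis-rich spot had at least 2 times the CPM of that list over the section. TMM factors came from edgeR 4.0.16 and size factors from DESeq2 1.42.0, on the 2 pooled columns and with no test. Promoter windows came from RefSeq, positions from GENCODE vM21.

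The hair follicle spots and all gene lists were chosen with earlier results of these data known. Named genes were the score genes, the 15 highest and 8 lowest by interval bound, the 4 with most UMIs of each list, defining genes of each compartment, and genes that itemise a list's count. *Ptch1*, *Gli1*, *Sox10*, *Mitf*, *Lhx2*, *Pcna*, *Jup* and *Pkp1* were picked after their values were seen. Results for 1 item are not reported here.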

Additional observations from a re-analysis of the deposited data

Results flagged for a closer look

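Outside the marked region of the Day 14 slide, in spots of which it was not tested whether they lie over tissue, 8638 UMIs of the 5 score genes were read, 29.4% of those on the slide, and 1122 of them came from 2515 spots with under 500 UMIs, at 1737 CPM. The unmarked spots of Day 3 and Day 7 had 3 and 12 such UMIs. Of the unmarked Day 14 spots with at least 500 UMIs, 228 scored at or above the threshold of the hair follicle spots.

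The epidermal differentiation list had opposite directions in the marked and the unmarked spots of the Day 14 slide. Its median log2 ratio was −1.06 in the marked spots and 1.54 in the unmarked spots, where 24 of 24 tested genes were higher. The 2 sets of unmarked spots also differed in muscle transcripts, at 57582 against 167604 CPM. Without the unmarked spots high in muscle, 0 of 24 were higher and the median was 0.22. The difference between the marked and unmarked spots was not tested. Over all genes, 42 that were lower in the hair follicle spots were higher in the unmarked spots above the threshold, 45 were lower in both, and 107 were higher in both (39.6% of the 270 and 6.44% of the 1661). Only 145 of the 270 reached the UMI minimum in the unmarked spots, and 141 of these had a ratio above equal levels there. Of all 8341 genes tested in the unmarked spots, 19.9% were higher.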

How the results depend on the processing

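Of 20 settings within the section, 19 planned and 1 chosen after seeing the data, none turned the direction of a list median or named gene that was 2-fold or more from equal levels. Of 519 list medians 500, and of 2518 values of the 128 named genes 2209, stayed within the reported counting interval (for lists, the median of the genes' intervals). These totals include the settings of the gene minimum, which cannot change the ratio of a single gene. After thinning, 58 values of named genes left the interval and 31 stayed. With the mean of spot CPM 55 left it and 73 stayed. The number of higher genes, 270 of 10024 tested as reported, was 520 of 10024 with the mean of spot CPM. It was 418 of 12224 with a gene minimum of 20 UMIs, 148 of 7407 with a minimum of 100 and 106 of 2308 after thinning to 1000 UMIs. The number of lower genes was 107 of 7407 with a minimum of 100 and 102 of 2308 after thinning, and 102 to 292 over all settings. Of the genes called after thinning, 29 of the higher and 23 of the lower were also called as reported. With the mean of spot CPM the list medians of companion layer, stefin A, matrix fibroblast and muscle genes were 0.71, −0.43, −0.30 and −1.05. After thinning, those of matrix transcription factors, rest genes, dermal papilla, stefin A, cholesterol synthesis, epidermal differentiation, wound epidermis, matrix fibroblast, muscle and endothelium were 1.19, 0.84, −0.05, 0.15, 0.51, −0.61, 1.01, −0.32, −1.01 and 0.05, with fewer genes tested: the values of rest, dermal papilla, stefin A and endothelium genes, which changed sign, rest on 1, 1, 2 and 1 genes. The muscle median was −0.81 with TMM, −0.80 with DESeq2 size factors, −0.79 without spots next to hair follicle spots and −0.25 without muscle-rich spots, and the companion median was 0.54 without *Krt25* in the score. Higher genes were 57.6% of the calls as reported, 38.7% with TMM, 39.9% with DESeq2 size factors and 65.7% with the mean of spot CPM. In the unmarked spots the medians were 1.90 for shaft keratins, 1.42 for matrix transcription factors, 1.61 for melanocyte genes, 1.25 for proliferation and 1.54 for epidermal differentiation. Without high muscle spots they were 0.64 for inner root sheath genes, 0.79 for shaft keratins, 0.29 for keratin-associated proteins, 0.41 for proliferation and 0.22 for epidermal differentiation. The epidermal genes *Calm4*, *Flg*, *Clca3a2*, *Krt1*, *Krt10*, *Krt77* and *Lor* had log2 ratios of 1.49, 1.65, 1.62, 1.66, 1.49, 1.57 and 1.75 in the unmarked spots and 0.15, 0.34, 0.36, 0.41, 0.19, 0.30 and 0.37 without high muscle spots, where *Trdn* was at 0.10. The cause of these changes was not tested. No paired analysis was possible because each day has 1 section and no test was run. Genes with few UMIs, such as *Corin*, could not be compared at this depth.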
